A study of Mus musculus with 12 samples.

Results

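9 genes of the newborn mouse forebrain are described here across cell classes and libraries: Dnm1, Trim9, Pitpnm1, Ppp2r2c, Tmeff2, Tmtc2, Nrip1, Adarb1 and Parp8. They are 9 of 55335 genes listed in the deposited matrices, and each was found as 1 row by its symbol. They belong to the study's own list of genes that were lower in Myt1l knockout embryos, and they were picked from it because they also stood out as lower in newborn heterozygotes (Het). The Het and wild-type (WT) levels given below therefore chose the members and are a description with no test. Levels across cell classes in WT, sex within WT and related genes are not part of that contrast of the 9 genes, and these were tested, although the lists of related genes were drawn up with earlier results of these data known.

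Single-nucleus RNA sequencing was carried out on forebrains at postnatal day 1 from 8 WT animals, of which 5 were males, and from 4 Het animals, of which 1 was a female, with 1 animal in each library and the animals coming from several litters. All animals were of the MYT1L S710fsX line on a C57BL/6 background, in which Het animals carry 1 copy of a germline frameshift allele of Myt1l and no other allele or agent was used. Knockout animals do not live after birth, so none were collected at this age. The study's methods, a figure legend and its reporting summary give the sizes of the WT and Het groups as the sample labels do, while its results text has them the other way round, and the labels were followed here. WT 6, WT 7, WT 8 and Het 4 are the female ones.

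Myt1l encodes a zinc finger transcription factor of neurons that binds DNA through the core letters AAGTT and helps young neurons to take on and keep their identity. The 9 genes work at different places in the cell. Dynamin 1 (Dnm1) pinches vesicles off the membrane at synapses, Pitpnm1 transfers phosphatidylinositol between membranes, and Trim9 is a brain ubiquitin ligase that acts on axon branching and vesicle release. Ppp2r2c is a brain regulatory subunit of protein phosphatase 2A, Tmeff2 is a transmembrane protein with follistatin-like and EGF-like domains, and Tmtc2 is a membrane protein of the endoplasmic reticulum. Nrip1 is a corepressor of nuclear receptors, Adarb1 (ADAR2) edits adenosine to inosine in RNAs such as those of glutamate receptor subunits, and Parp8 is a member of the ADP-ribosyltransferase family.

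Of 126684 barcodes, 94386 nuclei were kept, between 4461 and 10870 in each library, with 9798650 to 24175100 UMIs (unique molecular identifiers, 1 for each captured RNA molecule) in each library. Nuclei were grouped into 46 clusters without the 9 genes, and all but 11 of the clusters were given a class name from marker genes, each with at least 4 markers of its class raised. No barcode was found in more than 1 library. Myt1l itself was at 1279 to 1611 CPM (UMIs of the gene for each 1000000 UMIs of the nuclei summed) in the WT libraries, with a median of 1387, and at 1532, 1654, 1548 and 1560 in Het 1 to 4. In excitatory nuclei all 4 Het libraries were above all 8 WT libraries for Myt1l, as were 0.46% of the genes tested there, and UMIs over the gene do not tell the alleles apart, so Myt1l does not check the labels. If the labels were exchanged, each direction between Het and WT would be reversed. WT 4 held only 26 D1-like and 13 D2-like nuclei, far fewer than the other libraries. The mix of excitatory nuclei was not the same in the groups, a difference that was not tested: upper-layer nuclei made up 13.5% ± 3.76 (SD, n = 8) of WT and 20.8% ± 7.84 (n = 4) of Het libraries, and deep-layer nuclei 11.8% ± 3.97 and 6.999% ± 3.36. D1-like nuclei made up 5.21% ± 2.19 of WT and 8.22% ± 2.86 of Het libraries, and D2-like nuclei 2.94% ± 1.35 and 4.36% ± 1.11.

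All 9 genes lie on different stretches of the GRCm38 genome (GENCODE M21 annotation), with only Adarb1 and Tmtc2 sharing a chromosome. Tmtc2 spans 386789 bases on chromosome 10 (105187663 to 105574451, minus strand), Tmeff2 286624 bases on chromosome 1 (50900647 to 51187270, plus strand) and Parp8 170718 bases on chromosome 13 (116854820 to 117025537, minus strand). Adarb1 lies on chromosome 10 (77290726 to 77418270, minus strand), Trim9 on chromosome 12 (70244533 to 70347614, minus strand), Ppp2r2c on chromosome 5 (36868513 to 36955078, plus strand) and Nrip1 on chromosome 16 (76287400 to 76373827, minus strand). Dnm1 lies on chromosome 2 (32308471 to 32353338, minus strand), and Pitpnm1, the shortest at 13968 bases, on chromosome 19 (4099998 to 4113965, plus strand). Tmeff2, Tmtc2, Trim9, Ppp2r2c and Dnm1 overlap other annotated genes, 4, 8, 2, 2 and 3 of them, so that UMIs in shared stretches could be counted to either. Nrip1, Parp8, Adarb1 and Pitpnm1 overlap none.

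The promoters of the 9 genes (RefSeq windows of GRCm38.p6, from 250 bases before to 50 after each annotated start, 11 windows for 9 genes) were rich in G and C, with a median of 66.0% against 52.7% over all 32851 windows, and held a median of 24 CpG pairs against 7. The letters AAGTT, on either strand, were in 3 of the 11 windows and in 39.3% of all windows. The longer AAAGTTT was in none of the 11 and in 4.74% of all. The 3 windows with AAGTT, 2 of Nrip1 and 1 of Pitpnm1, are printed here because they are the only promoters among the 9 genes with the core letters of the MYT family, in capitals as AAGTT or as AACTT where the letters are on the other strand. In the first Nrip1 window the letters begin 189 bases before the start, in the second 130 bases before it, and in the Pitpnm1 window 2 bases after it.
Nrip1, window 1, chr16:76373778-76374077, minus strand: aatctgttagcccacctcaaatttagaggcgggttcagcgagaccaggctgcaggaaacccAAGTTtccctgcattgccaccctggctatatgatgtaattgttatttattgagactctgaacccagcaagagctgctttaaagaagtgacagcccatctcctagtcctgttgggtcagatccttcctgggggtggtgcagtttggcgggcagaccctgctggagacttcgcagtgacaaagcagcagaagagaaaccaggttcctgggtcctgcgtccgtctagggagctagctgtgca
Nrip1, window 2, chr16:76373000-76373299, minus strand: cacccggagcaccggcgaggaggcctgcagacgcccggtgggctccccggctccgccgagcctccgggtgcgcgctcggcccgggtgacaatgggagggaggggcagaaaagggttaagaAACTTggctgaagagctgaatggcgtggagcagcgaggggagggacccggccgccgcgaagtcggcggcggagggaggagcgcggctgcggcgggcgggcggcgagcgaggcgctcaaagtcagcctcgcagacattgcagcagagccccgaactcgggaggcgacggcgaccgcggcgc
Pitpnm1, window 2, chr19:4100372-4100671, plus strand: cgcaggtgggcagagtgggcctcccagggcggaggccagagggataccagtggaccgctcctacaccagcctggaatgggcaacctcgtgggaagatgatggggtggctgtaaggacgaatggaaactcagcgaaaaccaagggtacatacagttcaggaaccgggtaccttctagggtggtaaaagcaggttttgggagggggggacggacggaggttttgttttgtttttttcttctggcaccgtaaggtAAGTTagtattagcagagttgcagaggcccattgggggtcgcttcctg
A match to these letters is a description of the window, and binding of the factor was not measured here.

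Over all kept nuclei, each of the 9 genes was lower in Het than in WT, by 0.14 (Trim9) to 0.39 (Nrip1) on the log2 scale, with a median of -0.28, whereas the median over all 20113 genes tested was -0.00017. For 5 of the 9 (Dnm1, Parp8, Tmeff2, Pitpnm1 and Ppp2r2c) every Het library was below every WT library in CPM, as was the case for 0.209% of all genes tested. This contrast was used to pick the genes, so nothing is read from that share. In a sum over all nuclei, fewer nuclei of a class and less RNA in each nucleus cannot be told apart. Without WT 3 it was 7 of the 9 (0.577% of all genes), and without Het 1 also 7 (1.21%). Leaving out a library can only keep or raise such a count. The other 276 genes tested on the study's knockout list had a median log2 difference of -0.10.

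**Figure D1:**
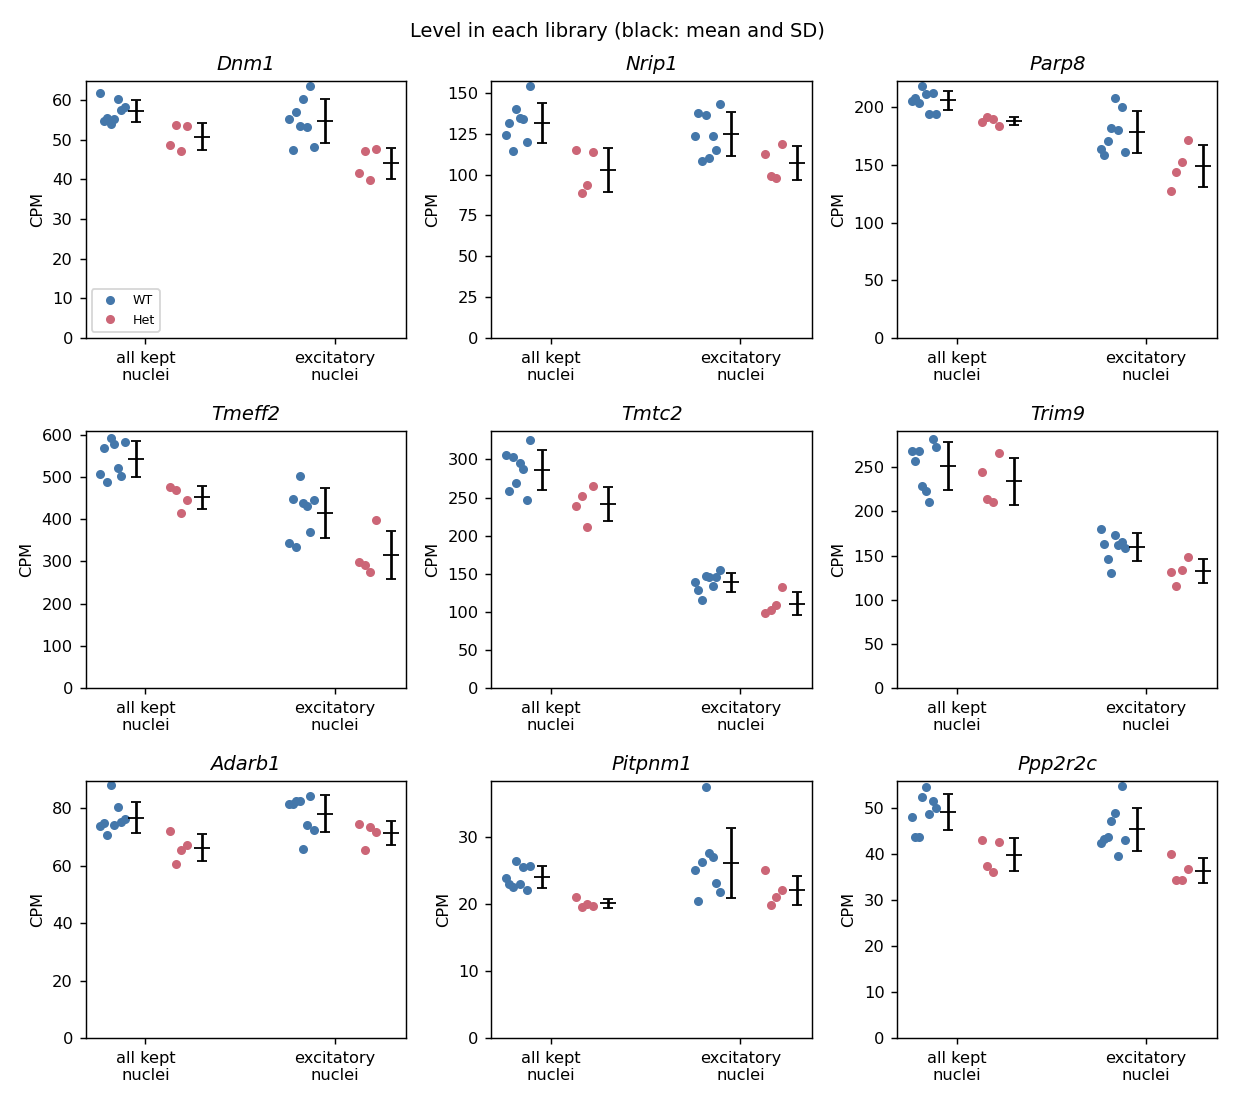
Level of each gene in CPM (y axis, from 0) in each WT (blue) and Het (red) library, summed over all kept nuclei (left of each panel) and over excitatory nuclei (right), with the mean and SD in black. The 4 Het points of Pitpnm1 over all kept nuclei sit between 19.5 and 21.04 CPM, below all 8 WT points, while in excitatory nuclei the points of both groups overlap for every gene.

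In excitatory nuclei, the 26165 nuclei of the upper-layer, deep-layer and L6b/subplate classes without the unnamed clusters, the log2 differences ran from -0.15 (Adarb1) to -0.41 (Tmeff2), with a median of -0.29. Markers of other cells were also higher in Het in these nuclei, all 6 of the choroid/ependymal list (5.21 to 16.1 CPM in WT and 6.91 to 42.2 in Het), 9 of 10 of the mural/fibroblast list (14.7 to 27.02 and 18.2 to 48.5) and all 6 of the D2 list (2.99 to 7.37 and 4.79 to 8.26), and their part in the differences was not tested. In none of the 9 genes did the groups stay apart there, and 0.38% of the genes tested had all Het below all WT. Without Het 4, the female Het library, 4 of the 9 had all remaining Het libraries below WT, as had 3.36% of all genes tested. Among males only, 5 of the 9 did, and 4.7% of all genes. With fewer libraries such counts can only stay or rise. When the 8 unnamed clusters with more Slc17a6 and Slc17a7 (glutamate transporters) than Gad1 and Gad2 (enzymes that make GABA) were added, 22332 nuclei, it was 2 of the 9, Dnm1 and Parp8, and 0.365% of all genes. This grouping was chosen after the data were seen.

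Levels by class are given for the 15 named classes that all 8 WT libraries held, unless another number is given. Contrasts of excitatory with inhibitory nuclei and of neurons with glia use named classes, and were repeated with the 8 unnamed clusters above on the excitatory side and the 3 with more Gad1 and Gad2 on the inhibitory side. Inhibitory nuclei are the MGE, CGE, D1, D2, olfactory and cholinergic classes pooled. Neurons are these, the excitatory classes and Cajal-Retzius-like nuclei. In WT, the level of Dnm1 was 65.6 ± 3.62 CPM in all named neurons and 31.5 ± 5.81 in astroglia and the oligodendrocyte lineage together, higher in neurons in 8 of 8 libraries (log2 difference 1.06, exact paired sign-flip permutation test, two-sided, adjusted p = 0.0111). The glial classes were unlike, with 18.6 ± 6.23 CPM in astroglia and 66.3 ± 17.6 in the oligodendrocyte lineage, the latter close to the mean of the neurons. Among the named classes Dnm1 was highest in Cajal-Retzius-like nuclei, the early neurons of the outermost layer, at 105 ± 23.7 CPM, and lowest in endothelial-like nuclei at 16.9 ± 5.83 (SD, n = 8 each). Unnamed cluster 14, on the inhibitory side by its transmitter genes, was at 125 ± 24.9 CPM. It held 7.07% of the WT UMIs of Dnm1, against 1.94% in Cajal-Retzius-like nuclei. D2-like striatal neurons were at 101 ± 47.9, with 215 CPM in WT 4 from 5 UMIs, and at 84.4 ± 13.6 in the 7 other WT libraries, below L6b/subplate-like nuclei at 92.8 ± 20.8. It was lower in excitatory than in inhibitory nuclei (54.8 against 77.8 CPM, adjusted p = 0.0111) and higher in deep-layer than in upper-layer nuclei, 62.8 ± 5.43 against 41.0 ± 4.57, in 8 of 8 libraries (adjusted p = 0.0111).

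Over all kept nuclei, the WT libraries held 54.0 to 61.7 CPM of Dnm1 (median 56.5), and Het 1 to 4 held 48.7, 53.7, 47.2 and 53.5. The groups did not overlap, although Het 2 and Het 4 were close to the lowest WT library. In deep-layer nuclei, which hold 14.9% of the WT UMIs of Dnm1, WT ran from 53.5 to 70.1 CPM and Het was at 51.9, 55.8, 47.5 and 49.0, a log2 difference of -0.32 ± 0.10 (SE). In deep-layer nuclei the 8 Cajal-Retzius markers, 6 of them higher in Het, summed to 60.5 to 108 CPM in WT and 111 to 136 in Het, and the 8 MGE interneuron markers, all of them higher in Het, to 266 to 364 and 363 to 403. Their part in the deep-layer values of any of the 9 genes was not tested. In upper-layer nuclei the log2 difference was -0.10, in CGE-derived interneurons -0.48 ± 0.22 on only 241 UMIs in all libraries, and in MGE-derived interneurons 0.05.

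Trim9 stood apart from the other members in where it was found. Astroglia-like nuclei held 1584 ± 312 CPM and 39.3% of all WT UMIs of the gene, cycling progenitors held 533 ± 155, and the next class, olfactory interneurons, 231 ± 86.6. Astroglia and the oligodendrocyte lineage together were at 1188 ± 226 CPM against 162 ± 10.7 in neurons, higher in 8 of 8 libraries (log2 difference of neurons minus these glia -2.84, adjusted p = 0.0111). Excitatory and inhibitory nuclei were at 160 and 170 CPM and did not pass the test (adjusted p = 0.316), but with the unnamed clusters added they were at 148 and 179 and passed, with excitatory nuclei lower in 8 of 8 libraries (exact permutation test, adjusted p = 0.0105). Deep-layer nuclei held more than upper-layer nuclei in 6 of 8 libraries (adjusted p = 0.0479, and 0.0575 with doublets kept). The upper-layer mean of 148 CPM joins unlike clusters, with 310 CPM over the pooled WT libraries in the one led by Sema3c and 82.0 and 80.8 in those led by Ccbe1 and Rorb, whereas the deep-layer clusters led by Tcerg1l and by Hs3st4 and Htr1f were at 185 and 180.

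In the sum of all nuclei, Trim9 was at 210 to 282 CPM in WT (median 262) and at 245, 214, 211 and 266 in Het 1 to 4, and all 4 Het libraries lay within the WT range. In astroglia-like nuclei, its main carrier, WT ran from 1053 to 1919 CPM and Het was at 1779, 1425, 1177 and 1655, with a log2 difference of -0.09 ± 0.16. In excitatory nuclei, WT ran from 130 to 180 CPM (median 162) and Het was at 132, 116, 134 and 148, a log2 difference of -0.29 ± 0.09. Both layers carried it: the log2 difference was -0.23 ± 0.09 in deep-layer and -0.21 ± 0.13 in upper-layer nuclei. The lowest value of any class, -1.20 ± 0.39 in cholinergic-like nuclei, rested on 60 UMIs in 3 WT and 4 Het libraries, and it was -0.47 when the clusters were drawn more coarsely.

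Pitpnm1 had few UMIs, 4598 over all libraries. In WT it was highest in L6b/subplate-like nuclei at 35.6 ± 11.9 CPM and in MGE-derived interneurons at 31.2 ± 3.76, and at 4.84 ± 4.43 in endothelial-like nuclei. Neurons held more than astroglia and the oligodendrocyte lineage, 25.7 against 13.4 CPM in 8 of 8 libraries (adjusted p = 0.0111). Neither excitatory against inhibitory nuclei (26.0 and 25.6 CPM, adjusted p = 0.859) nor deep against upper layers (26.0 and 24.9 CPM, adjusted p = 0.54) passed the test. With the unnamed clusters added, excitatory and inhibitory nuclei were at 26.2 and 27.2 CPM (adjusted p = 0.552). In choroid/ependymal-like nuclei, which only 5 WT libraries held in number, its level was 78.8 ± 48.0 CPM (n = 5).

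Over all kept nuclei, Pitpnm1 was at 22.0 to 26.4 CPM in WT (median 23.4) and at 21.04, 19.5, 19.96 and 19.7 in Het 1 to 4, so all Het libraries were lower. In MGE-derived interneurons, WT ran from 27.03 to 36.5 CPM and Het was at 29.6, 14.8, 18.7 and 15.4. Het 1 was within the WT range there and the other 3 Het libraries were well under it, and the log2 difference was -0.66 ± 0.18, or -0.92 without Het 1. These values rested on only 333.5 UMIs in all libraries. MGE-derived interneurons made up 5.17% ± 0.62 of the nuclei in Het (4.63 to 6.06) and 6.83% ± 1.12 in WT (5.33 to 8.62). This difference in share was not tested. In upper-layer nuclei the log2 difference was -0.30, and in deep-layer nuclei -0.06.

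Ppp2r2c was highest in Cajal-Retzius-like nuclei at 180 ± 31.6 CPM, higher than in the next class, MGE-derived interneurons at 65.5 ± 7.45, in 8 of 8 libraries (log2 difference 1.43, exact permutation test, p = 0.00781 and adjusted p = 0.082 over 126 tests between neighbouring classes). All other neuronal classes held 26.5 to 65.5 CPM and endothelial-like nuclei 12.9 ± 11.0. Neurons as a whole were at 53.0 CPM against 17.5 in astroglia and the oligodendrocyte lineage, in 8 of 8 libraries (log2 difference 1.66, adjusted p = 0.0111). It was higher in deep than in upper layers (50.6 against 37.9 CPM, adjusted p = 0.0111) and lower in the named excitatory classes than in inhibitory nuclei (45.3 against 56.4 CPM, adjusted p = 0.0201). That call was lost with the unnamed clusters added, at 52.8 against 56.7 CPM, with excitatory nuclei higher in 2 of 8 libraries (exact permutation test, adjusted p = 0.0967).

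Ppp2r2c summed over all kept nuclei was at 43.7 to 54.6 CPM in WT (median 49.4) and at 43.0, 37.4, 36.2 and 42.7 in Het 1 to 4, with no overlap and a log2 difference of -0.34 ± 0.07. In deep-layer nuclei, WT ran from 41.0 to 60.6 CPM and Het was at 47.4, 36.7, 41.1 and 38.9, a log2 difference of -0.33 ± 0.12. In D2-like nuclei the log2 difference was -0.57 ± 0.19, on only 314.5 UMIs in all libraries. WT ran from 42.9 to 79.1 CPM there and Het was at 49.2, 28.1, 37.3 and 45.9. The groups overlapped in both classes. In Cajal-Retzius-like nuclei, where its level was highest, the log2 difference was -0.26, and olfactory interneurons were the only one of 12 classes fitted in which it was higher in Het, by 0.15.

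Tmeff2 was highest in both classes of cortical interneuron, at 991 ± 130 CPM in MGE-derived and 928 ± 69.6 in CGE-derived nuclei, and lowest in Cajal-Retzius-like nuclei at 72.0 ± 22.7. It was lower in excitatory than in inhibitory nuclei, 414 ± 58.5 against 708 ± 127 CPM, in 8 of 8 libraries (log2 difference -0.77, adjusted p = 0.0111), and at 523 against 737 CPM with the unnamed clusters added (log2 difference -0.48). The inhibitory classes were unlike. D2-like nuclei, at 267 ± 87.3 CPM, had a lower mean than upper-layer nuclei, and D1-like nuclei, at 469 ± 85.6, than deep-layer nuclei. Tmeff2 was higher in deep than in upper layers, 517 ± 150 against 291 ± 27.8 (adjusted p = 0.0111). Within the deep layers it was uneven: the cluster led by Tcerg1l held 1234 CPM over the pooled WT libraries and the cluster led by Hs3st4 held 305. Mural/fibroblast-like nuclei also held 770 ± 225 CPM.

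In the sum of all nuclei, Tmeff2 was at 488 to 592 CPM in WT (median 544) and at 477, 469, 416 and 446 in Het 1 to 4, so all Het libraries were lower. In upper-layer nuclei, WT ran from 246 to 333 CPM and Het was at 250, 230, 224 and 177, a log2 difference of -0.39 ± 0.10. Only Het 1 reached the WT range there. In deep-layer nuclei the log2 difference was -0.18, and in MGE-derived interneurons -0.26. Among the named classes, microglia-like (-0.55 ± 0.35) and cholinergic-like nuclei (-0.52 ± 0.33) were the most negative for Tmeff2, on 384 and 166 UMIs.

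Tmtc2 was highest in cycling progenitors at 601 ± 232 CPM and in MGE-derived interneurons at 562 ± 51.0, and lowest in Cajal-Retzius-like nuclei at 53.1 ± 25.2. Cholinergic-like nuclei, held by 3 WT libraries, were at 1327 ± 266. Inhibitory nuclei held 438 CPM and excitatory nuclei 139, in 8 of 8 libraries (log2 difference of excitatory minus inhibitory -1.65, adjusted p = 0.0111). With the unnamed clusters added they held 414 and 213 CPM, and the log2 difference was -0.96. Unlike Dnm1, Tmeff2, Pitpnm1 and Ppp2r2c, Tmtc2 was lower in neurons than in astroglia and the oligodendrocyte lineage, 261 against 419 CPM in 8 of 8 libraries (adjusted p = 0.0111). Inhibitory nuclei alone, at 438 CPM, had a higher mean than these glia. The named excitatory classes held 13.2% of its WT UMIs. Unnamed clusters are not counted in this share. Of these, cluster 4 held 8.45%, and its WT libraries had medians of 3972 CPM of upper-layer markers and 3432 of deep-layer markers. Cluster 17, led by Tfap2d, held 10.6% at 762 ± 192 CPM, above all 15 named classes.

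Tmtc2 summed over all kept nuclei was at 247 to 325 CPM in WT (median 291) and at 238, 252, 212 and 265 in Het 1 to 4, and Het 2 and Het 4 were within the WT range. In upper-layer nuclei, WT ran from 95.8 to 143 CPM (median 133) and Het was at 85.3, 90.2, 100 and 94.9. There only Het 3 was above the lowest WT library, and the log2 difference was -0.42 ± 0.10. Among the named classes, only choroid/ependymal-like nuclei, at -0.51 ± 0.43, and endothelial-like nuclei, at -0.50 ± 0.22, were more negative. In D1-like striatal neurons, WT ran from 296 to 361 CPM and Het was at 288, 274, 289 and 264, with all Het below all WT, as in 0.189% of the genes tested in that class. The log2 difference there was -0.20 ± 0.08. The markers of the oligodendrocyte lineage, 6 of 9 higher in Het, summed to 470.3 to 614 CPM in D1-like nuclei in WT and 608 to 673 in Het, and their part was not tested.

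Among the named classes Nrip1 was highest outside the neurons, at 381 ± 25.1 CPM in endothelial-like nuclei and 224 ± 74.7 in microglia-like nuclei. This order was found in 8 of 8 libraries (exact permutation test, p = 0.00781, adjusted p = 0.082 over the neighbours). In unnamed clusters 4 and 6, both with more Slc17a6 and Slc17a7 than Gad1 and Gad2, Nrip1 was at 291 ± 64.8 and 219 ± 25.7 CPM. Among the named neurons it was at 159 ± 20.3 CPM in MGE-derived interneurons, 134 ± 33.0 in deep-layer and 129 ± 18.4 in upper-layer nuclei, and the test between the layers was not passed (adjusted p = 0.859, deep higher in 5 of 8 libraries). The deep-layer mean joins unlike clusters, at 292 CPM over the pooled WT libraries in the one led by Tcerg1l and 86.2 in the larger one led by Hs3st4 and Htr1f, with the 3 large upper-layer clusters between them at 115 to 142. It was higher in excitatory than in inhibitory nuclei, 125 against 99.3 CPM in 8 of 8 libraries (log2 difference 0.34, adjusted p = 0.0111), and at 153 against 95.8 CPM with the unnamed clusters added (log2 difference 0.67). Both sides joined unlike classes. On the inhibitory side, CGE, D1-like and D2-like nuclei were at 64.6, 56.1 and 52.3 CPM, below the 159 of the MGE class, and olfactory interneurons at 104. On the excitatory side, L6b/subplate-like nuclei held 61.8 CPM of Nrip1. The vessel and microglia classes held 3.13% and 1.09% of its WT UMIs, upper and deep layers 11.9% and 12.8%, and cluster 4 held 19.0%.

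In the sum of all nuclei, Nrip1 was at 115 to 154 CPM in WT (median 133) and at 115, 89.0, 93.7 and 114 in Het 1 to 4. Het 1 was just inside the WT range and the other 3 Het libraries were below it, and the log2 difference of -0.39 ± 0.08 was the most negative of the 9 genes. In upper-layer nuclei, WT ran from 112 to 162 CPM and Het was at 114, 103, 107 and 92.9, and in deep-layer nuclei the log2 difference was the same, -0.29. In endothelial-like nuclei, where its level was highest, it was -0.17. Olfactory interneurons had the most negative log2 difference of the named classes, -0.34 ± 0.18.

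Adarb1 was the most even of the 9 genes, with 2.91 times as much in the highest class as in the lowest of 15 named classes, against 32.0 times for Trim9. It was at 93.8 ± 39.5 CPM in olfactory interneurons, 92.5 ± 8.33 in upper-layer nuclei and 32.2 ± 11.9 in astroglia-like nuclei. It was the only one of the 9 for which upper layers passed the test as higher than deep layers, 92.5 against 67.8 CPM in 8 of 8 libraries (log2 difference of deep minus upper -0.45, adjusted p = 0.0111). Of the deep-layer clusters, however, the one led by Tcerg1l was at 102 CPM over the pooled WT libraries, within the 80.3 to 104 of the 3 large upper-layer clusters, and the one led by Hs3st4 and Htr1f at 59.0. Neurons held 75.2 CPM and astroglia and the oligodendrocyte lineage 38.0 (adjusted p = 0.0111), while the named excitatory classes and inhibitory nuclei did not pass the test (78.1 and 73.1 CPM, adjusted p = 0.257). With the unnamed clusters added, excitatory nuclei were higher, 88.7 against 75.4 CPM in 7 of 8 libraries (exact permutation test, adjusted p = 0.0288).

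Adarb1 summed over all kept nuclei was at 70.8 to 88.0 CPM in WT (median 75.2) and at 72.2, 60.7, 65.4 and 67.1 in Het 1 to 4, with Het 1 inside the WT range. In upper-layer nuclei, WT ran from 83.6 to 108 CPM and Het was at 80.4, 75.1, 78.9 and 79.0, a log2 difference of -0.24 ± 0.08. It was the only member with no overlap in this class, in which 0.152% of the genes tested had all Het below all WT. In deep-layer nuclei the log2 difference was -0.25 ± 0.13 and in D1-like nuclei -0.34 ± 0.12. In all excitatory nuclei together it was smaller, -0.15 ± 0.08. The most negative named classes were L6b/subplate-like nuclei, -0.47 ± 0.28 on 200 UMIs, and endothelial-like nuclei, -0.46 ± 0.34 on 120 UMIs.

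Of the 15 named classes, Parp8 was highest in the oligodendrocyte lineage at 348 ± 28.4 CPM and lowest in endothelial-like nuclei at 75.8 ± 21.9. Unnamed cluster 6, on the excitatory side by its transmitter genes, was also at 348 ± 20.4 CPM. It held 10.4% of the WT UMIs of Parp8, against 4.01% in the oligodendrocyte lineage. The D1-like, L6b/subplate, MGE and CGE classes held between 224 and 235 CPM, but upper-layer nuclei held 125 ± 13.3, lower than the 222 ± 19.0 of deep-layer nuclei in 8 of 8 libraries (log2 difference 0.83, adjusted p = 0.0111). It was lower in excitatory than in inhibitory nuclei, 178 against 211 CPM in 7 of 8 libraries (log2 difference -0.24, adjusted p = 0.0201). With the unnamed clusters added the difference was smaller, 198 against 222 CPM, again in 7 of 8 libraries (log2 difference -0.16, exact permutation test, adjusted p = 0.0201). Neurons held 194 CPM and the pooled nuclei of astroglia and the oligodendrocyte lineage 229 (adjusted p = 0.0111), but astroglia alone were at 185 ± 15.1, below the neurons.

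Parp8 summed over all kept nuclei was at 194 to 218 CPM in WT (median 207) and at 188, 192, 190 and 184 in Het 1 to 4, a narrow band just under the lowest WT library. In excitatory nuclei the log2 difference was -0.28 ± 0.10, but it was -0.08 in upper-layer, -0.11 in deep-layer and -0.07 in L6b/subplate nuclei. Of the named classes, MGE-derived interneurons had the most negative log2 difference, while that of unnamed cluster 6, described below, was more negative still. In MGE-derived interneurons WT was at 212 to 257 CPM and Het at 207, 197, 191 and 197. All Het were below all WT in this class, as in 0.364% of its genes tested, and the log2 difference was -0.24 ± 0.08. The 9 cycling progenitor markers, 8 of them higher in Het, summed to 14.6 to 31.4 CPM in this class in WT and 22.8 to 39.6 in Het. The 8 endothelial markers, 7 of them higher, summed to 18.7 to 28.3 and 19.6 to 39.5. Their part in the values of Parp8 and Pitpnm1 in this class was not tested.

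**Figure D2:**
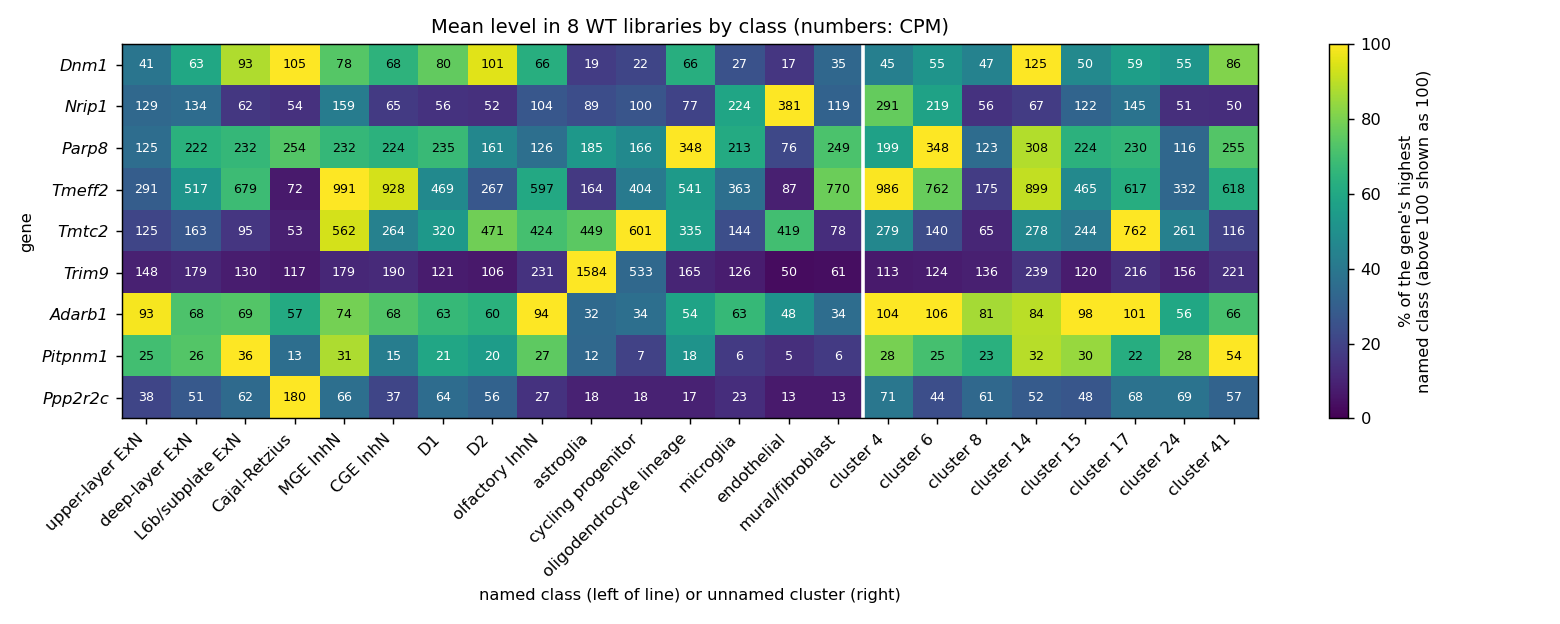
Mean CPM over the 8 WT libraries, or 4 of them for cluster 41 (numbers), of each gene (rows) in 15 named classes and 8 unnamed clusters (columns), coloured by the percentage of the gene's highest named class. Among the named classes, the highest level of Trim9 is in astroglia at 1584 CPM, that of Tmeff2 in MGE-derived interneurons at 991, that of Ppp2r2c in Cajal-Retzius-like nuclei at 180 and that of Nrip1 in endothelial-like nuclei at 381.

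Over the 9 genes and the 3 fixed contrasts, 22 of 27 tests passed at an adjusted p under 0.05, and 23 with the unnamed clusters added. Deep-layer nuclei held more than upper-layer nuclei of Dnm1, Trim9, Ppp2r2c, Tmeff2, Tmtc2 and Parp8, less of Adarb1, and Pitpnm1 and Nrip1 did not pass. For Tmtc2 too the clusters of a layer were unlike, at 370 and 105 CPM over the pooled WT libraries in the deep-layer clusters led by Tcerg1l and by Hs3st4 and Htr1f, and at 44.99 to 212 in the 3 large upper-layer clusters. Neurons held more than the pooled nuclei of astroglia and the oligodendrocyte lineage of Dnm1, Pitpnm1, Ppp2r2c, Tmeff2, Nrip1 and Adarb1, and less of Trim9, Tmtc2 and Parp8. The pooled value hides unlike classes: the oligodendrocyte lineage alone was close to the neurons for Tmeff2 (541 against 526 CPM), Trim9 (165 against 162) and Dnm1. The neurons were mixed too. For Nrip1 the L6b/subplate, Cajal-Retzius, CGE, D1 and D2 classes, at 52.3 to 64.6 CPM, were below astroglia (89.3) and the oligodendrocyte lineage (76.8). The other named neuronal classes were above both. For Tmtc2 inhibitory nuclei (438 CPM) were above the pooled glia (419) and excitatory nuclei (139) below. Between neighbours in each gene's order of 15 classes, 17 of 126 tests had an unadjusted p under 0.05, and 12 were at 0.00781, the smallest p that 8 pairs allow. None passed after adjustment (smallest adjusted p = 0.082). Over 126 tests a p at this floor can pass only if enough others are at it too, and the order came from the same libraries. The outcome therefore does not decide on any single pair, and no full order of classes is claimed. With all 12 libraries 14 of the tests between neighbours passed. Levels in the lowest classes were not separated from free RNA.

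The genes whose WT levels across the 15 classes followed each member most closely were found by Pearson's r of log2(CPM + 1), over 20113 genes. For Adarb1 these were Nexmif and Ppfia2 (r = 0.93 and 0.91), for Ppp2r2c Erc2 and Gm43871 (0.95 and 0.94), for Trim9 Gramd4 and Phyhipl (0.94 and 0.92) and for Pitpnm1 Gpr162 and Gm42444 (0.94 and 0.92). For Dnm1 they were Gm44797 and Clec2l (0.91 and 0.90), for Nrip1 Parp10 and 4931403E22Rik (both 0.90) and for Parp8 Zkscan16 and Mthfsl (0.84 and 0.81). For Tmtc2 they were Gm48207 and Gm48204 (0.98 and 0.88), both annotated inside Tmtc2 on its strand, and for Tmeff2 Gm48112 and Gm28320 (0.93 and 0.91), the latter inside Tmeff2. The classes share libraries and depth, and these values are a description.

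Across the 17 named classes, 132 pairs of gene and class had enough UMIs to be fitted, and Het was lower in 109 and higher in 23. By gene, Het was lower in 16 of 17 classes for Trim9, 15 of 17 for Parp8, 13 of 17 for Tmtc2, 11 of 17 for Tmeff2, 12 of 15 for Nrip1 and Adarb1, 11 of 13 for Dnm1, 11 of 12 for Ppp2r2c and 8 of 9 for Pitpnm1. All 9 were lower in upper-layer, deep-layer, L6b/subplate and astroglia-like nuclei, with medians of -0.24, -0.23, -0.19 and -0.18. In these 4 classes the medians over all genes tested were between -0.01 and 0.00. Fewer were lower in other classes, with 5 of 9 in olfactory interneurons and 3 of 8 in Cajal-Retzius-like nuclei. In mural/fibroblast-like nuclei 4 of 7 were lower and in choroid/ependymal-like nuclei 3 of 5. In 4 of the 132 pairs all Het libraries were below all WT libraries: Adarb1 in upper-layer nuclei, Parp8 in MGE-derived interneurons, Tmtc2 in D1-like nuclei and Trim9 in cholinergic-like nuclei, a class in which 3.77% of genes showed the same. Over all genes 0.217% of the pairs were of this kind. Without Het 1 there were 10 such pairs of the 9 genes, against 914 of 110227 pairs over all genes. Such a count cannot fall when a library is left out.

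**Figure D3:**
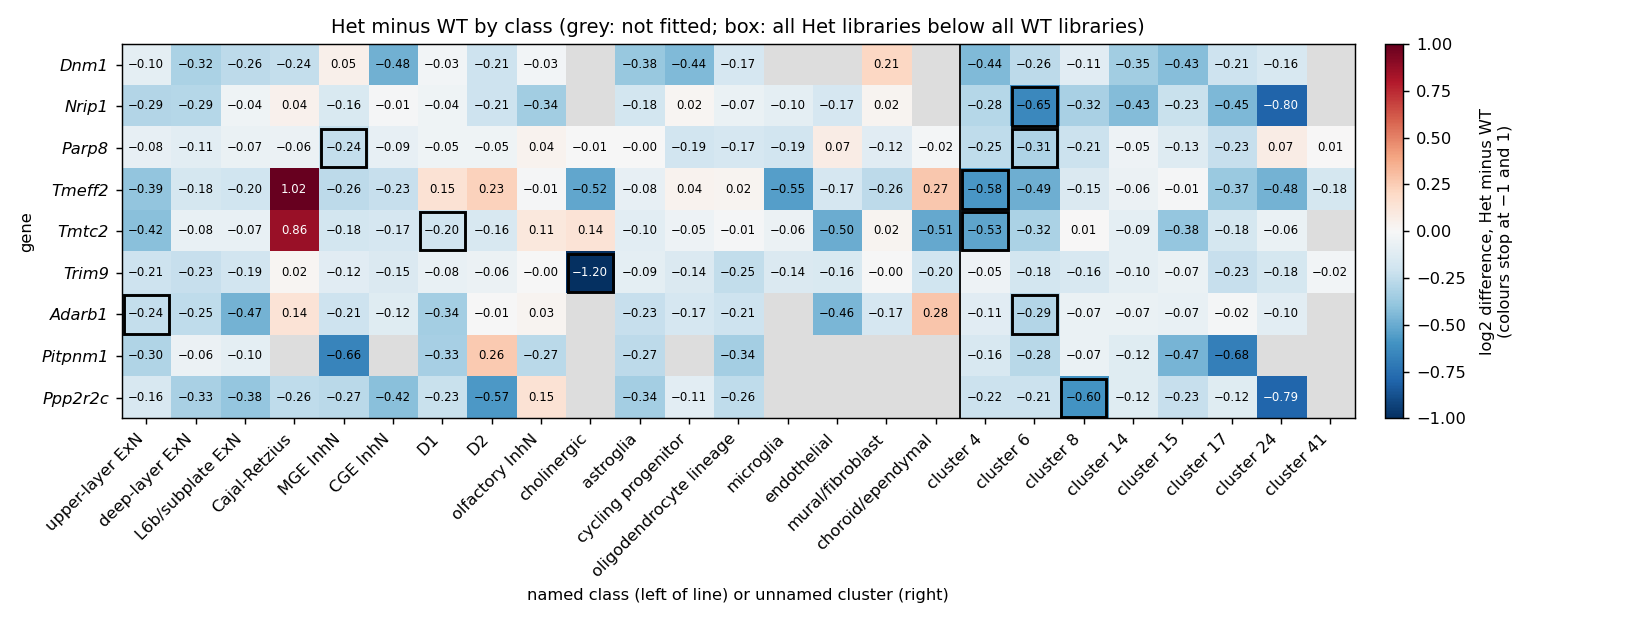
Log2 difference of Het minus WT of each gene (rows) in named classes and unnamed clusters (columns), blue where lower in Het and red where higher, with boxes where all Het libraries were below all WT libraries. Most cells are blue, while Tmeff2 and Tmtc2 in Cajal-Retzius-like nuclei are red at 1.02 and 0.86.

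In Cajal-Retzius-like nuclei, 5 of the 8 genes fitted were higher in Het and 3 lower, with a median log2 difference of 0.03. Tmeff2 and Tmtc2 were among those that were higher. Tmeff2 was at 39.1 to 116 CPM in WT (median 67.5) and at 147, 142, 177 and 108 in Het 1 to 4, a log2 difference of 1.02 ± 0.21. All Het libraries but Het 4 were above all WT libraries. Tmtc2 was at 23.3 to 86.1 CPM in WT and at 63.3, 147, 107 and 72.2 in Het, a log2 difference of 0.86 ± 0.31, with Het 1 and Het 4 inside the WT range. The values rested on 265 and 176 UMIs from 893 nuclei. The 8 MGE interneuron markers summed to 83.8 to 232 CPM in these nuclei in WT (median 134) and to 227 to 465 in Het, 5 of the 8 being higher in Het, and the 9 markers of the oligodendrocyte lineage, 4 of them higher in Het, to 87.1 to 258 in WT and 210 to 463 in Het. Cajal-Retzius markers were at 12952 to 23019 CPM in WT and 18261 to 19731 in Het. The part of those other markers in the result was not tested.

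**Figure D4:**
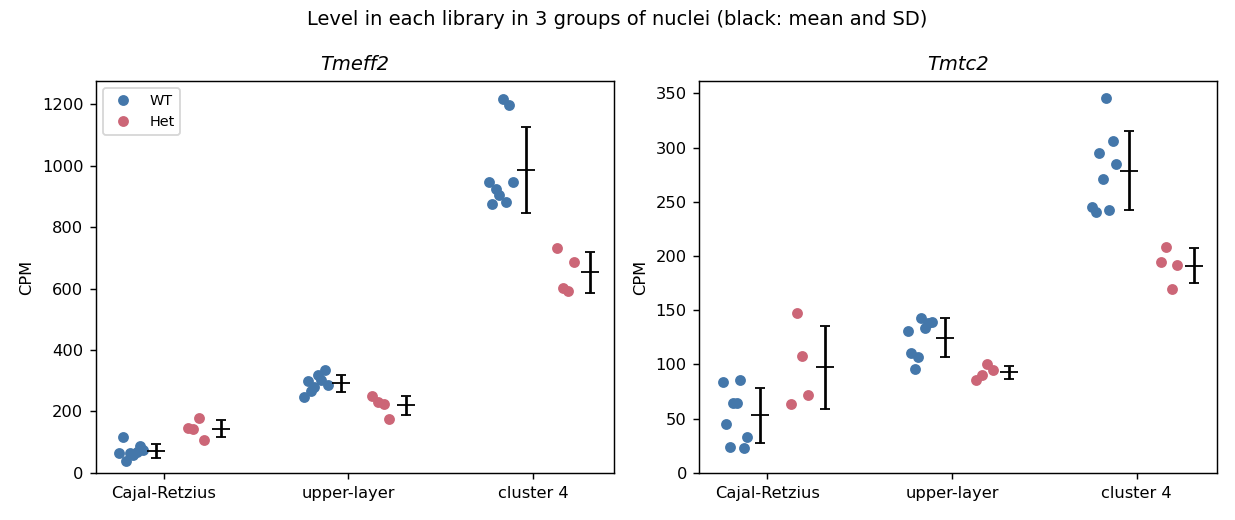
CPM (y axis, from 0) of Tmeff2 and Tmtc2 in each WT (blue) and Het (red) library in Cajal-Retzius-like nuclei, upper-layer nuclei and unnamed cluster 4, with the mean and SD in black. In Cajal-Retzius-like nuclei the Het mean of Tmeff2 is 144 against 72.0 CPM, whereas in cluster 4 it is 653 against 986.

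Some of the lowest values were in clusters that no marker list named. Of these clusters, 24 and 17 held the lowest log2 differences, -0.80 and -0.68. Neither held a gene without overlap between the groups. Clusters 4, 6 and 8, which did hold such genes, are described here. Cluster 4, led by Tshr, Glis3 and Dkk2, carried 19.0% of the WT UMIs of Nrip1 and 15.98% of those of Tmeff2. In it Tmeff2 was at 874 to 1217 CPM in WT and at 731, 600.5, 593 and 686 in Het (log2 difference -0.58 ± 0.10), and Tmtc2 was at 241 to 345 in WT and at 195, 208, 169 and 192 in Het (-0.53 ± 0.10). Both were without overlap, as were 0.371% of the genes tested there. The markers of the oligodendrocyte lineage summed to 223 to 285 CPM in WT and 310 to 419 in Het in this cluster, and their part was not tested.

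Cluster 6, led by Ntf3, Cntnap5c and Slc26a7, held 219 ± 25.7 CPM of Nrip1 and 348 ± 20.4 of Parp8 in WT. Nrip1 was at 183 to 272 CPM there in WT and at 157, 115, 121 and 157 in Het, a log2 difference of -0.65 ± 0.11. Parp8 was at 315 to 381 CPM in WT and at 305, 280, 238 and 295 in Het (-0.31 ± 0.08), and Adarb1 at 97.6 to 118 and at 96.9, 79.8, 81.6 and 85.1 (-0.29 ± 0.10). All 3 were without overlap, against 0.318% of all genes tested in the cluster. The 11 astroglia markers, 10 of them higher in Het, summed to 104 to 186 CPM there in WT and 161 to 283 in Het, and the 7 markers of olfactory interneurons, 3 of them higher in Het, to 1805 to 2714 and 1116 to 1888. Their part in these values was not tested. In cluster 8, led by Il1rapl2, Runx2 and Nr4a3, Ppp2r2c was at 47.0 to 78.8 CPM in WT and at 33.1, 46.4, 42.4 and 42.2 in Het (-0.60 ± 0.17), again without overlap, against 0.309%. The 6 choroid/ependymal markers, all higher in Het, summed to 0.709 to 11.4 CPM in cluster 8 in WT and 10.4 to 32.6 in Het, the 10 mural/fibroblast markers, 8 of them higher, to 10.1 to 26.4 and 15.9 to 39.9, and the 9 upper-layer markers, 8 of them higher, to 2708 to 3142 and 2859 to 3417. The part of these markers was not tested. In clusters 4, 6 and 8 all 9 genes were lower in Het, apart from Tmtc2 in cluster 8 at 0.01.

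Because the classes differ in level and the libraries in their mix, the comparison was repeated with the same mean share of UMIs from each class in every library. Over all kept nuclei, the median log2 ratio of mean CPM went from -0.24 as measured to -0.19 with the mix held fixed, and 7 of the 9 differences were smaller. Dnm1 and Nrip1 were then without overlap between the groups. In all, 2 of 9 were, against 5 as measured, and 0.189% of all genes were. Without Het 1 it was 6 of 9 (1.27% of all genes), and without WT 3 it was 4 (0.438%). All 9 stayed lower in Het.

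In excitatory nuclei, with the mix held fixed by cluster, the median log2 ratio was -0.23 against -0.27. Parp8 moved the most of those that became smaller, from -0.26 to -0.09, and Dnm1 went from -0.32 to -0.19. Nrip1 went the other way, from -0.22 to -0.33, and Adarb1 from -0.13 to -0.29. Both were then without overlap, as were 0.321% of all genes, with WT at 127 ± 10.8 and Het at 101 ± 9.28 CPM for Nrip1 and WT at 81.7 ± 5.17 and Het at 66.9 ± 7.38 for Adarb1. Without Het 1, 5 of the 9 were without overlap, and 1.33% of all genes.

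**Figure D5:**
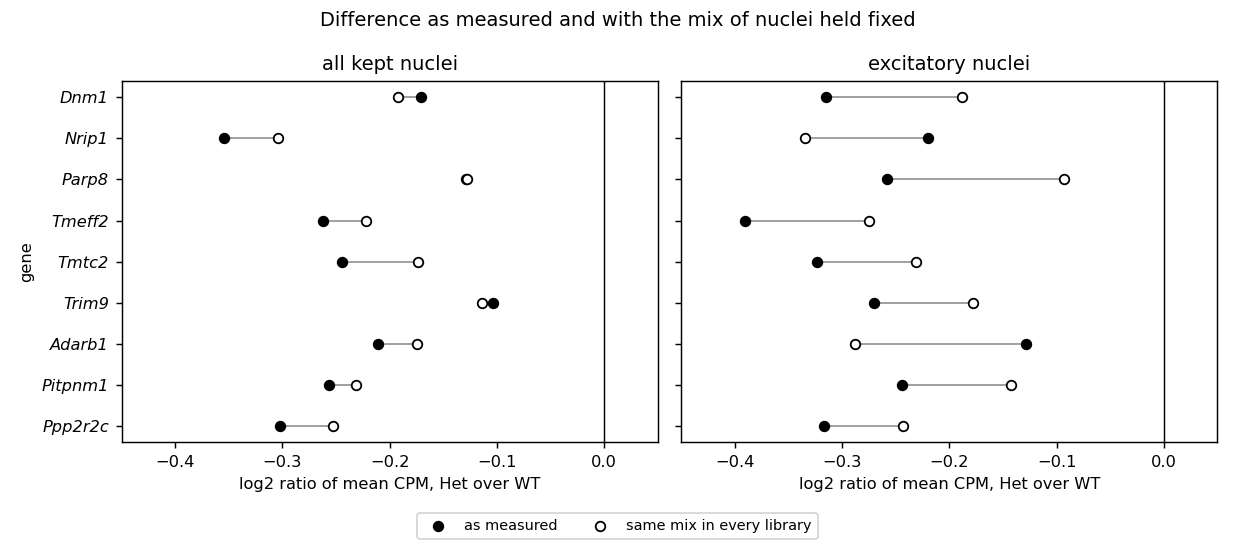
Log2 ratio of mean CPM, Het over WT (x axis), of each gene as measured (filled) and with the same mix of nuclei in every library (open), over all kept nuclei by class (left) and over excitatory nuclei by cluster (right). All points lie below 0, and in excitatory nuclei the open points of Nrip1 and Adarb1 lie further from 0 than the filled ones, at -0.33 and -0.29.

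Sex, tested in the WT libraries (3 female, 5 male), did not pass for any member. Over all kept nuclei the log2 differences of female minus male ran from -0.08 to 0.05 and in excitatory nuclei from -0.18 to 0.10, with a lowest adjusted p of 0.9997 and no unadjusted p under 0.05 (edgeR's quasi-likelihood test with Benjamini-Hochberg adjustment, and no call by DESeq2). Of all genes tested, 0.0371% and 0.0547% were called.

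Paralogs and partners of the 9 genes, 127 genes in 9 lists, gave no call between Het and WT by edgeR or by DESeq2, over all kept nuclei or in excitatory nuclei. Called means an adjusted p under 0.05 and a log2 difference of at least 0.2 either way, and by edgeR 0% of all genes were called in both, while DESeq2 called 24 genes over all kept nuclei and 10 in excitatory nuclei. At an unadjusted p under 0.05, 18 were lower and 2 higher over all kept nuclei, and 15 lower and 9 higher of 118 tested in excitatory nuclei. Of all genes tested, 10.2% were under this p over all kept nuclei (5.66% lower and 4.54% higher) and 12.6% in excitatory nuclei (7.51% lower and 5.04% higher). The list medians in excitatory nuclei ran from -0.15 for relatives of Pitpnm1, all 10 of which were lower, to 0.28 for those of Tmeff2. Without Het 4, 10 of them were called in excitatory nuclei, and so were 4.19% of all genes tested. Of the 127, 5 are also on the study's knockout list.

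The gene with the smallest p of each list in excitatory nuclei did not pass either (adjusted p from 0.232 to 0.347). For Dnm1 this was Pacsin1, a dynamin-binding protein of endocytosis, with a log2 difference of -0.62 ± 0.18. For Pitpnm1 it was Pitpnc1 (-0.44 ± 0.15), for Nrip1 the coactivator Ncoa3 (-0.30 ± 0.11), for Adarb1 the calcium channel Cacna1d (-0.21 ± 0.08) and for Ppp2r2c the phosphatase subunit Ppp2r5c (-0.17 ± 0.06). The other 4 were on the higher side. For Tmeff2 it was Fst, which encodes follistatin, at 1.20 ± 0.27, for Tmtc2 Tmtc4 at 0.51 ± 0.14, for Parp8 Tiparp at 0.44 ± 0.17 and for Trim9 Trim36 at 0.40 ± 0.10.

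Of the genes on the study's knockout list that are not among the 9, Cfap69 and Pcdh19 had the smallest p in excitatory nuclei. Cfap69 was at 30.5 ± 4.01 CPM in WT and 21.2 ± 4.22 in Het, a log2 difference of -0.57, and Pcdh19 at 79.8 ± 11.4 and 61.9 ± 4.73, a log2 difference of -0.39. Cfap69 was thus further below WT than any of the 9 genes, of which Tmeff2 was the lowest at -0.41.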

How the data were processed

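The authors processed the reads with ScaleRna 1.4 and CellFinder of ScaleRna 1.5 on mm10, and Seurat 4.3.0 is in the submitters' processing notes. No source used here states whether the counting used strand. The deposited matrices hold expected counts of UMIs for each gene and barcode, with 6.58% to 6.88% of entries divided between genes. They had been taken for whole counts when the tests were designed, and sums were rounded to whole numbers before each fit. Barcodes were kept when they held 300 to 3000 genes and 800 to 6000 UMIs, no more than 1% of them mitochondrial, and when log genes divided by log UMIs reached 0.9, and the 5% of barcodes in each library with the highest simulated doublet score were removed. The median kept nucleus held 1898 UMIs and 1151 genes. Nuclei were clustered on 3000 variable genes (scanpy 1.11.5, leidenalg 0.10.2, resolution 1.5), and clusters were named from fixed marker lists. UMIs were summed for each library and class, with at least 10 nuclei in a library and 3 libraries of each genotype, and fitted with edgeR 4.0.16 (R 4.3.3; TMM, filterByExpr, quasi-likelihood, genotype only), with DESeq2 1.42.0 as an alternative. Scripts were tested on simulated data. CPM are UMIs of a gene for each 1000000 UMIs of the nuclei summed. Fold changes of the members are log2 differences from edgeR. Their SE was worked out as the size of the difference divided by the square root of edgeR's F statistic. The ratios with the mix held fixed are of mean CPM.

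Class levels were compared in 8 WT libraries with exact two-sided paired sign-flip permutation tests on log2(CPM + 1), whose smallest p is 0.00781, with Benjamini-Hochberg adjustment over 27 fixed contrasts and over 126 neighbours. Each library is 1 animal. Of 55335 identifiers, 748 were not in GENCODE M21. Named genes were the 9 members, Myt1l, the 2 genes most like each member, the gene with the smallest p of each list of relatives, and 2 genes of the knockout list outside the 9. The members and lists were chosen with earlier results of these data known. The samples' replicate numbers mark no shared animal, and same-numbered libraries of the same sex correlated at -0.19, 0.10, 0.09 and 0.28, so they were not treated as pairs. Alternatives were other filters, normalization, cluster resolutions, sex, and leaving out each library, and the addition of unnamed clusters to the neurons by transmitter genes was chosen after the data were seen.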

Additional observations from a re-analysis of the deposited data

Results flagged for a closer look

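In excitatory nuclei, Pitpnm1 in WT 4 was at 37.3 CPM, far from the next WT library at 27.5, a gap of 0.58 of the range of the 8 WT libraries. Of 36 groups of libraries examined in this way it was the only one, and chance gives about 1 in 20.

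Tmeff2 in Cajal-Retzius-like nuclei was higher in Het, by 1.02 on the log2 scale, with all 4 Het libraries above the WT mean, while in 6 other classes all 4 were below it. Tmtc2 in the same nuclei was higher by 0.86, with all 4 Het libraries above the WT mean, while in 5 other classes all 4 were below it. The difference between classes was not tested.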

How the results depend on the processing

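All 9 genes had a median log2 difference between -0.30 and -0.23 over all kept nuclei, and between -0.36 and -0.27 in excitatory nuclei, when each library was left out in turn. With the mix held fixed these medians ran from -0.20 to -0.17 and from -0.25 to -0.20. With a library left out, members with all Het below all WT numbered 5 to 7 over all kept nuclei. In excitatory nuclei they numbered 0 to 4. Leaving out a library, or keeping males only, cannot lower such a count, so its lower end was fixed in advance. In excitatory nuclei it was 5 among males only, 1 with doublets kept, 1 as a mean over nuclei and 2 with the unnamed clusters added. With these clusters added the log2 difference of Pitpnm1 between excitatory and inhibitory nuclei was -0.046 against 0.016, neither passing the test. With the mix held fixed the number without overlap ran from 2 to 6 over all kept nuclei, and was 4 at a cluster resolution of 2.5, and from 2 to 5 in excitatory nuclei. The share of gene and class pairs lower in Het ran from 74.2% to 84.1% and was 69.9% with no filter. Pairs without overlap numbered 4 to 10, a count that likewise cannot fall when a library is left out. Neighbouring classes that passed numbered 14 with all 12 libraries. Called relatives in excitatory nuclei ran from 0 to 10, with 10 without Het 4, when 4.19% of all genes were called, and were 2 with no filter. The causes were not tested.

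With the replicate block the medians were -0.23 both over all kept nuclei and in excitatory nuclei, 68.2% of the class pairs were lower in Het, and no relative was called. Of the 4 Het libraries, 1 correlated best with the WT library of its own number. Of 2226 values for single genes in classes under other settings, 8 moved by more than the spread between libraries. Low UMI totals limit Pitpnm1 and the rare classes.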
